A study of Homo sapiens with 2 samples.

Results

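The genes that make, carry and sense retinoic acid were compared between OECM1 cells with a let-7i vector and OECM1 cells with an empty vector. The 10 genes (ALDH1A1, ALDH1A2, ALDH1A3, RDH10, DHRS3, CRABP2, RARA, RARB, RARG and RXRA) were chosen by name, and every probe set that the platform annotation assigned to 1 of them was taken. The choice was made with earlier results of these data known. They comprised 10 of the 19775 genes that had a probe set with no other symbol and 26 of the 54675 probe sets on each array.

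Retinoic acid is made from vitamin A in a pair of oxidations and acts through nuclear receptors. Retinol dehydrogenases such as RDH10 oxidise retinol to retinal, DHRS3 reduces retinal back to retinol, and the aldehyde dehydrogenases ALDH1A1, ALDH1A2 and ALDH1A3 oxidise retinal to retinoic acid. CRABP2 carries the acid to the nucleus, where heterodimers of a retinoic acid receptor (RARA, RARB or RARG) with a retinoid X receptor such as RXRA bind response elements and switch transcription. In stratified epithelia this pathway is known for its hold on keratinocyte differentiation.

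RNA came from the established cell line OECM1, derived from a head and neck cancer and grown in RPMI medium with fetal bovine serum, after stable transfection. One group carried pmCherry-let7i, which expresses the microRNA let-7i, and the other the pmR-mCherry empty vector, so both groups share the mCherry backbone. Each group had 1 array of 1 culture, so no difference below had a replicate check, and no test, p-value or SD between cultures was possible. Whether each line was 1 clone or a pool was not given in the sources used here. In bulk RNA of this kind, fewer cells of a type and less RNA per cell cannot be told apart.

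The mature let-7i strand is shown because it is what distinguishes the 2 vectors. Its bases 2 to 8, the seed that pairs with messenger RNAs, are in capitals (RefSeq, GRCh38.p14, chr12:62603691-62603712, plus strand).
let-7i-5p: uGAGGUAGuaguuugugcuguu
A second pair of sequences shows where retinoic acid receptors are known to act. The promoter windows of RefSeq (250 bases before to 50 after each gene's start) were searched on both strands for 2 sites of 6 bases, each being AGGTCA or AGTTCA or GGGTCA or GGTTCA, in the same orientation and separated by 5 bases, the spacing called DR5. Of 35116 windows 31 (0.0883%) held one, belonging to 29 of 27305 gene symbols. Windows were present for 9 of the 10 retinoic acid genes, and RARB held the element in 1 of its windows. In all, 75 genes with a window came from these genes and the lists set beside them below. Those lists take in coregulators and keratinocyte genes but not the cell type markers. Among the 75, CYP26A1, which encodes an enzyme that degrades retinoic acid, was the other one with a match. Spacings of 1 and 2 bases (DR1 and DR2) were found in none of the 75. Each line gives 30 bases of the plus strand before the gene's start, with the match in capitals. In RARB it lies on the plus strand, from base -53 to -37 relative to the start (chr3:25428204-25428233), and in CYP26A1 on the minus strand, from -90 to -74 (chr10:93073797-93073826), both in GRCh38.p14. A match describes letters, not binding.
RARB: gggtagGGTTCACCGAAAGTTCActcgcat
CYP26A1: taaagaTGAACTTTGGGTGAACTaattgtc

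The values are MAS5 signals on a linear scale, with a mean of 500.1 on both arrays once 2% of the values were trimmed at each end. A floor was set at the median signal of each array, 79.5 with let-7i and 88.0 with the empty vector. A probe set at or above the floor on both arrays is called measured, and one below it on 1 array gives only a bound. Ratios are log2 of let-7i over empty vector. The spread of 1 probe set, from the disagreement between the 2 brightest measured probe sets of 5807 genes, had an SD of 0.25 in log2 units (0.34 in the dimmest 1452 of these pairs and 0.15 in the brightest 1452). It covers probe noise only. Signals of different probe sets were not set against each other, but those of cell type markers were summed on each array.

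Of the 26 probe sets, 17 were measured, 2 gave bounds and 7 were below the floor on both arrays. Of the 19 above the floor on at least 1 array, 16 were lower with let-7i and 3 higher, all 3 higher ones belonging to RARA. By comparison, 49.8% of all 23919 probe sets above the floor were lower. The genes were chosen with earlier results of these data known. Shares over all probe sets or genes, here and below, therefore give scale only. At least 2-fold lower were 4 of the 19, against a background of 1.3%, and 1 was at least 2-fold higher, against 1.07%. At least 1.5-fold lower were 7 of the 19, where the background was 6.3%. The 4 lower by 2-fold belonged to RDH10 (2 probe sets), DHRS3 and RARG. The median log2 ratio was -0.51 over the 17 measured probe sets, beside 0 over all 21442 measured ones, on whose median the ratios were centred.

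**Figure D1:**
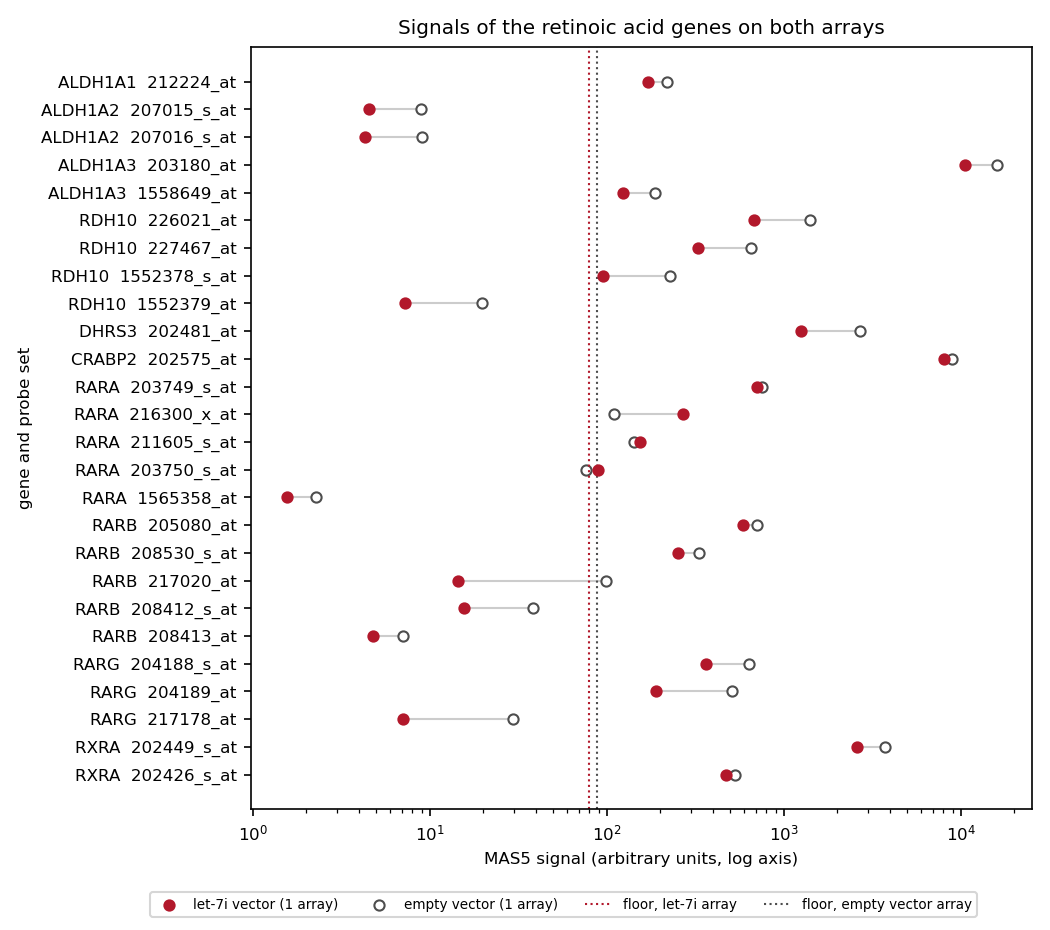
MAS5 signal (log axis) of all 26 probe sets of the 10 genes on the let-7i array (filled) and the empty vector array (open), with each array's floor as a dotted line. Apart from 3 probe sets of RARA, the filled point lies left of the open one in each row, and both probe sets of ALDH1A2 lie far below the floors.

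RDH10 and DHRS3, the enzymes among the 10 chosen genes that interconvert retinol and retinal, were both lower with let-7i. Other enzymes of retinol and retinal are described below. RDH10, the dehydrogenase that starts the synthesis, had signals of 676 with let-7i and 1412 with the empty vector in its brightest probe set (226021_at). This is a 2.07-fold lower level, a log2 ratio of -1.05. Its probe set 227467_at gave 330 with let-7i and 658 with the empty vector, and 1552378_s_at gave 96.0 and 227 in the same order. The 3 measured probe sets thus spanned -1.23 to -0.98, and they were 3.66 to 5.04 times the noise SD at their signals, and 1552379_at was below the floor on both arrays. DHRS3, the reductase that returns retinal to retinol and is itself induced by retinoic acid, had 1 probe set, with signals of 1255 with let-7i and 2683 with the empty vector. It was 2.12-fold lower (log2 ratio of -1.08), a difference of 7.01 times the SD at that signal. Of all measured probe sets, 0.83% had a ratio as low as that of RDH10 226021_at and 0.718% one as low as that of DHRS3. Both enzymes, which act in opposite directions on retinal, thus lay near the lower end of the array.

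The aldehyde dehydrogenases were lower by less than 2-fold or below the floor. ALDH1A3, one of the retinal-oxidising enzymes, had signals of 10637 with let-7i and 15947 with the empty vector in 203180_at. The second probe set of ALDH1A3, 1558649_at, gave 124 with let-7i and 188 with the empty vector. The 2 ratios were -0.57 and -0.59, that is 1.49-fold and 1.503-fold lower, so a bright and a dim probe set differed by only 0.018. The first ratio is 3.69 times the SD at its signal and the second 1.75 times the larger SD of dim probe sets. ALDH1A1, which oxidises retinal and other aldehydes, had signals of 172 with let-7i and 218 with the empty vector. Its log2 ratio of -0.33 was no larger than the SD of 1 probe set at such signals (0.34). ALDH1A2, the main retinoic acid-forming enzyme of the early embryo, was below the floor in both probe sets, with signals of 4.31 and 4.56 with let-7i and of 9.08 and 8.91 with the empty vector, and no fold is given.

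CRABP2, the protein that hands retinoic acid to its receptors, had signals of 8038 with let-7i and 8977 with the empty vector. The log2 ratio of -0.15 was 0.945 times the SD of 1 probe set at that signal. Of the measured probe sets on the array 30.8% had a ratio as low.

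**Figure D2:**
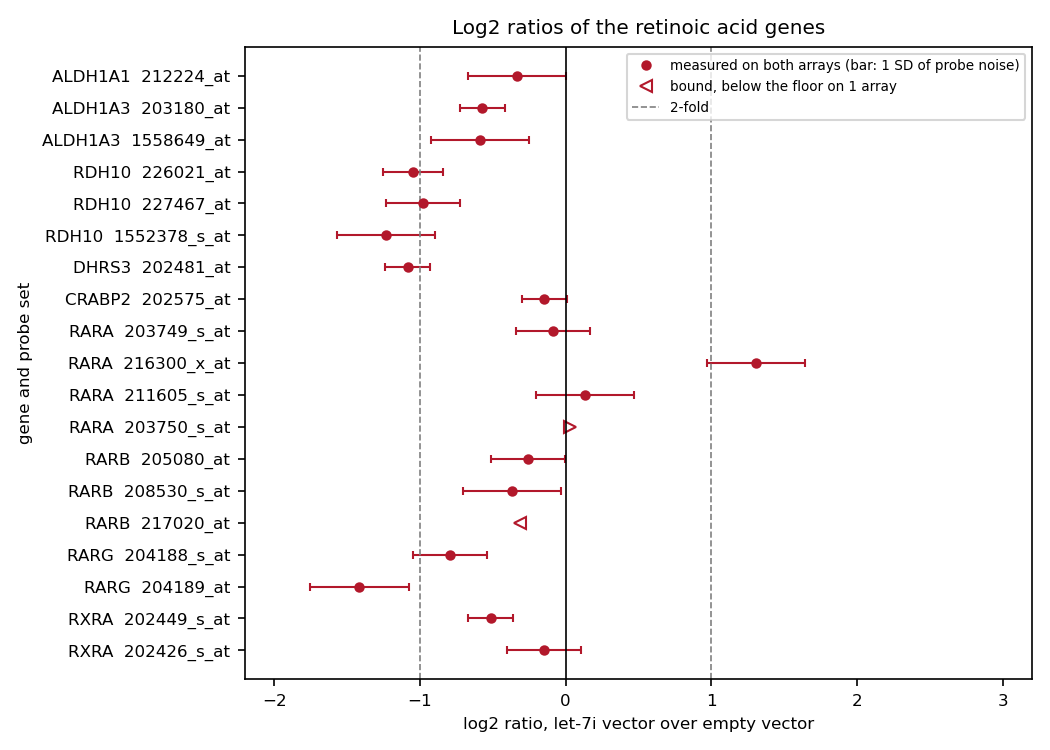
Log2 ratio (let-7i vector over empty vector) of the 19 probe sets above the floor on at least 1 array, with bars of 1 SD of probe noise, open triangles for bounds and dashed lines at 2-fold. The measured probe sets of RDH10 agree between -1.23 and -0.98, while those of RARA run from -0.09 to 1.31.

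Among the receptors RARG had the lowest measured ratios. RARG, the retinoic acid receptor that predominates in skin, had signals of 365 with let-7i and 638 with the empty vector in 204188_s_at. In 204189_at RARG gave 191 with let-7i and 513 with the empty vector. The log2 ratios were -0.79 and -1.41, a 1.73-fold and a 2.67-fold lower level, or 3.11 and 4.201 times the SD at these signals. Both probe sets were lower, but they differed by 0.62 in size, and another one (217178_at) lay under both floors. Only 0.21% of the measured probe sets of the array had a ratio as low as that of 204189_at.

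RARB, a receptor whose gene is itself induced by retinoic acid through the DR5 element printed above, had signals of 587 with let-7i and 708 with the empty vector in 205080_at. In 208530_s_at RARB gave 254 with let-7i and 331 with the empty vector. The log2 ratios of -0.26 and -0.36 were 1.004 and 1.08 times the SD of 1 probe set, so they agreed in direction but hardly exceeded probe noise. The probe set 217020_at was below the floor with let-7i (14.5) and just above it with the empty vector (99.6), which gives an at least 1.24-fold lower level. That bound deepened to -2.36 (log2) once the floors were lowered to the 25th percentile of the arrays, and it was -1.20 with 50 added to each signal in place of a floor. The remaining 2 probe sets of RARB were below the floor on both arrays.

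The probe sets of RARA, the most widely expressed of the 3 receptors, did not agree. In the brightest, 203749_s_at, RARA had signals of 708 with let-7i and 758 with the empty vector, a log2 ratio of -0.09. In 211605_s_at the signals were 155 with let-7i and 142 with the empty vector, a ratio of 0.13, and both values were under 0.4 times the SD. In 216300_x_at RARA gave 271 with let-7i and 111 with the empty vector, a 2.47-fold higher level (log2 ratio of 1.31). The suffix _x_at marks a probe set that can also match other transcripts. When the floors were raised to the 65th percentile, above the empty vector signal of 216300_x_at, only a bound of 0.24 was left. Probe set 203750_s_at was under the empty vector floor (89.1 with let-7i and 76.4 with the empty vector) and gave a bound of 1.02-fold, and 1565358_at was below both floors. No single direction can be given for RARA.

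RXRA, the partner of all 3 receptors, had signals of 2582 with let-7i and 3720 with the empty vector in 202449_s_at and of 474 and 529 in the same order in 202426_s_at. The brighter was 1.43-fold lower (log2 ratio of -0.51, or 3.32 times the SD), and the dimmer had a ratio of -0.15, or 0.571 times the SD. Both lay below 0, and they differed by 0.37.

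With 1 probe set per gene, the one with the highest mean log2 signal, 9 of the 10 genes were above the floor. All 9 were lower with let-7i, where 47.3% of all 12284 genes above the floor were lower. For RARA (0.34 times the SD), CRABP2 (0.945), ALDH1A1 (0.986) and RARB (1.004) the ratio hardly exceeded probe noise or lay within it. RARA was lower in this probe set only, and its other ones above the floor were higher. The median of the 9 log2 ratios was -0.51, beside 0.01 for all genes. RDH10 and DHRS3 were at least 2-fold lower, 2 of 9 against a background of 1.32%, and with RARG 3 of 9 were at least 1.5-fold lower, against 5.58%. The call of RDH10 lies at the threshold and ended with 50 added to each signal in place of a floor (log2 ratio of -0.997), which left 1 gene at least 2-fold lower, whereas 3 were with averaged probe sets or without _s_at and _x_at probe sets. When the probe sets of each gene were averaged instead, the median was -0.33 and 8 of 9 genes were below 0. The gene no longer below 0 was RARA, whose average includes its _x_at probe set. The median of -0.51 was the value of RXRA 202449_s_at, and the average of RXRA also takes in 202426_s_at (-0.15).

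**Figure D3:**
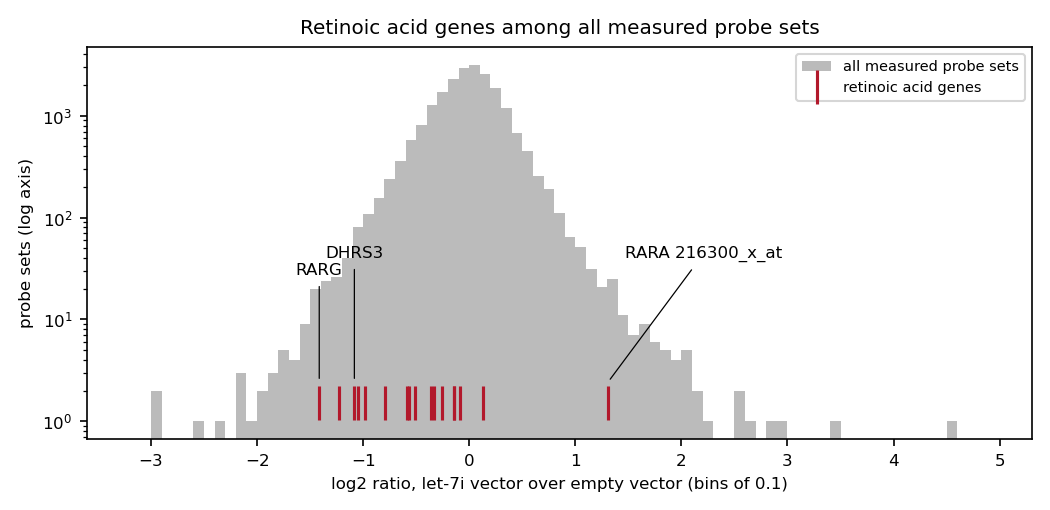
Number of probe sets (log axis) by log2 ratio in bins of 0.1 for all 21442 probe sets measured on both arrays (grey), with the 17 measured probe sets of the retinoic acid genes as red ticks. Of the 17 ticks 15 lie below 0, and RARA 216300_x_at stands alone at 1.31.

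Other genes of the pathway were set beside these. Over all 12284 genes above the floor, 5807 were lower and 6318 higher. Among enzymes of retinol and retinal outside the 10, 7 of the 17 read (19 listed) were above the floor, 2 lower and 5 higher, none past 2-fold, with a median log2 ratio of 0.03. RDH11, a retinal reductase, had a ratio of 0.01 (4653 with let-7i and 4674 with the empty vector), with 4 probe sets from -0.34 to 0.24. The ratio of 0.01 was above 0 only through the centring, and without centring 3 of the 7 genes were below 0. DHRS9, a retinol dehydrogenase of epithelia, had 232 with let-7i and 182 with the empty vector, a ratio of 0.37. ADH4, an alcohol dehydrogenase, had a ratio of 0.29 from an _x_at probe set. Both ratios were within or near the SD of dim probe sets (0.34), and the other probe sets of both genes were below both floors. RDH5, a retinol dehydrogenase of the eye, and BCO2, which cleaves carotenoids, gave bounds of -0.30 and -0.24.

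Of 12 genes listed for uptake, binding and clearance 9 were read, and 3 were above the floor. STRA6, the cell surface receptor that takes up retinol and a gene induced by retinoic acid, had signals of 376 with let-7i and 587 with the empty vector. It was 1.55-fold lower (log2 ratio of -0.63), and its second measured probe set, 1569335_a_at, gave -0.67. CYP26B1, which oxidises retinoic acid for clearance, pointed the other way, with 280 with let-7i and 174 with the empty vector, a log2 ratio of 0.70 or 1.62-fold higher, in its 1 measured probe set. CYP26A1, whose promoter element is printed above, lay under both floors (22.1 with let-7i and 15.1 with the empty vector), and the signal of TTR, a retinol carrier of plasma, left its direction unset.

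No other receptor of the list was past 2-fold. Of 13 genes listed 11 were read and 10 were above the floor, 7 lower and 3 higher, with a median of -0.06. The higher ones were VDR (a ratio of 0.34), PPARD (0.07) and NR4A2 (a bound of 0.09). A second measured probe set of VDR gave 0.69 and a further one a bound of -0.59. The other measured ones of PPARD gave 0.39 and 0.70, and a further one of NR4A2 gave a bound of -0.38. RXRB, a second retinoid X receptor, had signals of 946 with let-7i and 997 with the empty vector, a log2 ratio of -0.06, and its other 2 probe sets gave 0.00 and 0.44. RXRG was below the floor on both arrays. THRB, a thyroid hormone receptor that pairs with retinoid X receptors, was 1.40-fold lower (340 with let-7i and 480 with the empty vector), and its 3 measured probe sets ran from -0.78 to -0.49. NR1H3, an oxysterol receptor, had a ratio of -0.76 at dim signals (80.6 with let-7i and 137 with the empty vector), and PPARA, a fatty acid receptor, and NR4A1, an orphan receptor, gave bounds of -0.50 and -0.41. Among receptor coregulators 12 of the 13 read (16 listed) were above the floor, 6 lower and 6 higher, with a median of 0.02 and none past 2-fold. TBL1X, a subunit of the NCOR corepressor complex, had a ratio of 0.54 in its brightest probe set, but its other measured ones gave 0.29 and -0.60 and a further one a bound of -0.38, so no direction can be given. HDAC3, the deacetylase of that complex, had a ratio of 0.19, and the coactivator NCOA1 ratios from -0.19 to 0.11 in 4 probe sets. NRIP1, a corepressor that binds ligand-bound receptors and is induced by retinoic acid, was 1.43-fold lower (2609 with let-7i and 3753 with the empty vector), with ratios of -0.51 and -0.35 in its 2 probe sets.

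Genes known to be induced by retinoic acid showed no common direction. Of 15 listed 13 were read and 9 were above the floor, 4 lower and 5 higher, with a median of 0.03 and 1 past 2-fold each way (the backgrounds over all genes were 1.32% lower and 1.15% higher). PLAAT4, a phospholipase and acyltransferase also called RARRES3, had signals of 533 with let-7i and 1549 with the empty vector, a 2.88-fold lower level (log2 ratio of -1.53). TGM2, a transglutaminase, had signals of 2474 with let-7i and 775 with the empty vector, a 3.22-fold higher level, and in 3 measured probe sets its log2 ratio ran from 1.36 to 1.75. RAI14, an actin-associated protein, had a ratio of 0.98 (1605 with let-7i and 821 with the empty vector), and MEIS1, a homeobox factor, one of -0.39. RARRES1, named after its values were seen, had ratios of -0.33, -0.71 and 0.45 in 3 probe sets. DHRS3, RARB, STRA6 and NRIP1, described above as induced by retinoic acid, belong to other lists and are not in these counts. Their brightest probe sets were all lower, with log2 ratios of -1.08, -0.26, -0.63 and -0.51, where 47.3% of all genes above the floor were lower. The ratio of RARB was 1.004 times the SD of 1 probe set. These genes were not a list fixed beforehand, and CYP26B1, from the same list as STRA6, was higher (0.70). The counts over the induced genes thus depend on how the list was drawn up.

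**Figure D4:**
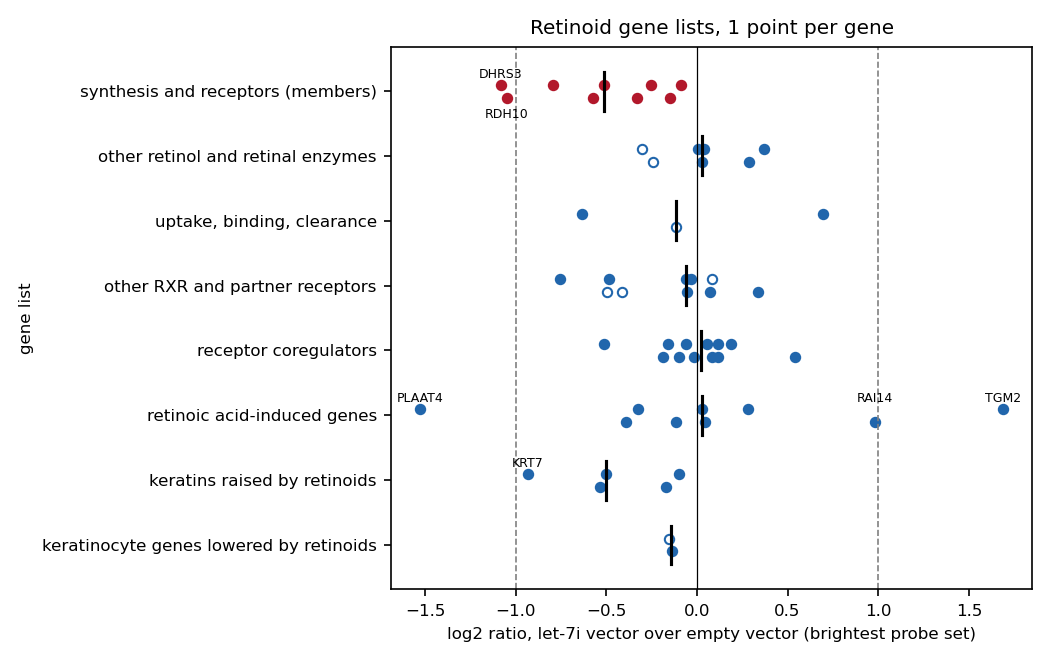
Log2 ratio (let-7i vector over empty vector) of the brightest probe set of each gene above the floor, by gene list, with filled points for genes measured on both arrays, open points for bounds, a black bar at each median and dashed lines at 2-fold. The 9 retinoic acid genes above the floor have their median at -0.51, and the retinoic acid-induced genes spread from PLAAT4 at -1.53 to TGM2 at 1.69 around 0.03.

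Markers of the labelled cells and of other cell types were read on the same arrays. The epithelial adhesion protein EPCAM was above the floor on both, with signals of 6690 with let-7i and 10912 with the empty vector (log2 ratio of -0.69), but the other 5 squamous markers read here, the basal keratins KRT5 and KRT14 among them, were below the floor on both arrays. The 3 remaining markers of that list were not analysed here. The summed signal of the 6 was 6778 with let-7i and 11053 with the empty vector, nearly all of it from EPCAM, so the sum describes that gene only. Of 8 fibroblast markers 3 were above the floor and all 3 were higher with let-7i. By comparison, 6318 of all 12284 genes above the floor were higher. The ratios were 0.99 for DCN, a matrix proteoglycan, 0.78 for FAP, a surface protease, and 0.27 for COL1A1, a collagen chain. The values of DCN and COL1A1 are from _x_at probe sets. A second probe set gave DCN a bound of 0.92 and COL1A1 a ratio of 0.10, and the other 5 of DCN and 3 of COL1A1 were below both floors. The summed signal of the 8 was 1274 with let-7i and 870 with the empty vector, and COL1A2, COL3A1, LUM, PDGFRA and PDGFRB were below the floor on both arrays. Of the 4 leukocyte markers read (6 listed) 2 were above the floor, CD3E with a ratio of -0.92 and ITGAM with 0.28, PTPRC was below it on both arrays, and the sum was 265 with let-7i and 322 with the empty vector. Of 5 endothelial markers PECAM1 alone was above it, with ratios of 0.23, -0.26 and -0.19 in 3 probe sets, and with a sum of 474 with let-7i and 424 with the empty vector. The part of these differences in the ratios of the retinoic acid genes was not tested.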

How the data were processed

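Biotin-labelled cRNA from total RNA of 2 OECM1 cultures was hybridised to 1-colour arrays, per the labels' protocols. The authors deposited MAS5 signal intensities, per the submitters' processing notes. The MAS5 settings are not given in the sources. Equal trimmed means on both arrays show a common scale, so a difference in total RNA per cell cannot show. The number of arrays limits the precision.

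Of 54675 probe sets, 41097 with 1 symbol in the platform annotation were used, 1801 carried several symbols and 11777 none listed. Listed genes without a probe set of 1 symbol were not analysed here. All 26 member probe sets kept their symbol through Entrez IDs in RefSeq. Signals below the floor were set to it. Ratios were centred on the median of probe sets measured on both arrays (a shift of -0.013). Sequences are from RefSeq, GRCh38.p14.

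The members and lists were chosen with earlier results of these data known. All members were named, with up to 4 genes per other retinoid list by largest absolute ratio and any past 2-fold, and the up to 3 brightest markers per cell type. RDH11, RXRB, RXRG, VDR, PPARD, NR4A2, CYP26A1, RARRES1, KRT18, FLG and the markers below the floor were named outside that rule. The alternatives were no centring, floors at the 25th or the 65th percentile, quantile normalization, lowess centring (fraction 0.3, 3 iterations), log2(signal + 50), averaging probe sets, leaving out _s_at and _x_at probe sets, and 1.5-fold and 3-fold thresholds. Software: pandas 2.3.3 and NumPy 2.4.6 on Python 3.11.15, with statsmodels 0.14.6 for lowess and Matplotlib 3.10.9 for plots.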

Additional observations from a re-analysis of the deposited data

How the results depend on the processing

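Across the scalings and floors, 105 of 108 recomputed ratios of the retinoic acid probe sets moved by less than the SD of 1 probe set. The exceptions were RARA 216300_x_at under a 65th percentile floor (a bound of 0.24) and RARB 217020_at under a 25th percentile floor (-2.36) and with log2(signal + 50) (-1.20). No ratio past 2-fold changed sign. Under the 65th percentile floor no ratio was left for ALDH1A1, ALDH1A3 1558649_at, RARA 203750_s_at, RARA 211605_s_at, RARB 217020_at and RDH10 1552378_s_at. These lost ratios are not among the 108, and 8 of the retinoic acid genes then remained. The count of 4 probe sets at least 2-fold lower became 7 at 1.5-fold and 0 at 3-fold, 5 under the 25th percentile floor, and 3 under the 65th percentile floor, with log2(signal + 50) or without _s_at and _x_at probe sets. With log2(signal + 50) no probe set of RDH10 was past 2-fold (226021_at at -0.997 and 1552378_s_at at -0.914), while RARB 217020_at was. By gene, 1 was then at least 2-fold lower in place of 2, and 3 were with averaged probe sets or without _s_at and _x_at ones. The count of 1 higher became 0 at 3-fold, 0 under the 65th percentile floor and 0 without _s_at and _x_at probe sets. The median of the retinoic acid genes was -0.33 with averaged probe sets. Without _s_at and _x_at probe sets, the median was -0.15 for the other retinol and retinal enzymes, -0.26 for the other receptors and -0.24 for the retinoic acid-induced genes. The median for uptake, binding and clearance was 0.30 under the 25th percentile floor and 0.46 with log2(signal + 50), which gave -0.36 for the keratins raised by retinoids. The other 49 of 56 recomputed list medians moved by less than 1 SE of a median from probe noise. The cause of these shifts was not tested, except that leaving out probe sets or changing the floor changes which values are read. No paired analysis was possible because each group has 1 array. Signal near or below the floor limits what can be said of ALDH1A2, of 7 of the 26 probe sets and of RARB 217020_at. The same holds for RDH10 1552378_s_at (96.0 with let-7i), which is among the probe sets counted as at least 2-fold lower. It holds too for RARA 203750_s_at (76.4 with the empty vector) and RARA 216300_x_at (111 with the empty vector).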

Other observations

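Keratin genes known to respond to retinoids in cultured keratinocytes were read as well. Of the 6 keratins that retinoids raise, 5 were above the floor and all 5 were lower with let-7i, with a median log2 ratio of -0.50, where 47.3% of all genes above the floor were lower. KRT7, a keratin of simple epithelia, had signals of 178 with let-7i and 343 with the empty vector in its brightest probe set by mean log2 signal, a ratio of -0.93, while 1558393_at gave -0.29. KRT19, a keratin of simple and mucosal epithelia, had signals of 7522 with let-7i and 10984 with the empty vector, a 1.45-fold lower level. KRT13, a mucosal keratin, was 1.42-fold lower at dim signals (105 with let-7i and 150 with the empty vector), and KRT8 and KRT18, the keratin pair of simple epithelia, had ratios of -0.17 and -0.10. Of the 7 keratinocyte genes that retinoids lower in culture, 5 were below the floor on both arrays, filaggrin (FLG) among them. KRT10, a keratin of differentiating epidermis, had a ratio of -0.14, and KRT1, its partner, was below the floor with let-7i and gave a bound of -0.16.

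Probe sets of antisense transcripts at 3 of the loci were not counted with the genes. RARA-AS1 had signals of 55.7 with let-7i, below the floor, and 96.4 with the empty vector. RARB-AS1 (43.9 with let-7i and 50.2 with the empty vector) and ALDH1A2-AS1 (7.25 with let-7i and 45.05 with the empty vector) were below the floor on both arrays.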
